A study of Homo sapiens with 4 samples.

Results

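Aminoacyl-tRNA synthetases are the enzymes that join each amino acid to its transfer RNA, and the 36 genes described here encode cytosolic and mitochondrial members of that family, out of 22465 genes measured. They were chosen by name, as genes with an array row that carries their symbol alone, with the brightest such row kept on average over the arrays. By textbook compartment 20 encode cytosolic enzymes and 16 mitochondrial ones. TARS3 was placed with the cytosolic group, and GARS1 and KARS1, whose genes also give the mitochondrial enzyme, were counted there too. The RNA was from cultured MHCC-LM3 cells, a metastatic line of human liver cancer. One group received 50 µM of zerumbone, a sesquiterpene from ginger, for 24 h and the other its solvent, DMSO, with 2 Affymetrix arrays in each and no genetic change in either. The comparison asks how each synthetase transcript differed after the compound, and whether the enzymes of the cytosol and of the mitochondrion moved alike.

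Cells keep separate sets of these enzymes for the ribosomes of the cytosol and of the mitochondrion, all encoded in the nucleus, and most amino acids have a distinct gene for each. When charging falls short, uncharged tRNA activates the kinase GCN2, which phosphorylates eIF2 alpha and so favours translation of the transcription factor ATF4. Many cytosolic synthetase genes are known targets of ATF4, together with genes for amino acid synthesis and uptake, whereas mitochondrial synthetases serve only the few proteins encoded by the mitochondrial genome.

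All values are the authors' log2 expression values, differences are zerumbone minus DMSO, and a gene "rose" or "fell" when the adjusted p of limma, a linear model fitted to all genes, was under 0.05. Of the 22465 genes, 36.0% were called, 18.4% higher and 17.7% lower. Among the 11487 genes above background level on at least 1 array, 63.7% were called, 30.7% higher and 33.0% lower. Background level is the 95th percentile of 23 antigenomic control rows on each array, which lay between 4.54 and 5.10. The antigenomic rows themselves were higher under zerumbone by a median of 0.0785. No hepatocyte marker stood clear of background, since 6 of 7 did not exceed it in either group and ALB did not under DMSO, whereas the epithelial keratins KRT8 and KRT18 were at 15.87 and 15.04 under DMSO. Of 4 epithelial markers 3 fell, KRT8 by 1.31, KRT18 by 0.75 and CDH1 by 0.48, and without DMSO replicate 1 only KRT8 did. Leukocyte, endothelial and fibroblast markers were at background in both groups for 4 of 5, 3 of 4 and 2 of 3 genes, with CD68, KDR and DCN as the others. CD68 rose by 0.93 (from 13.60) and KDR fell by 1.93 (from 7.90), and their part in the results below was not tested. Fewer cells of a kind and less RNA per cell cannot be told apart in these bulk samples. The labels do not state whether arrays of the same group stem from separate cultures, and p-values may therefore reflect technical spread alone.

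Under zerumbone 12 of the 20 cytosolic synthetase genes rose and 5 fell, while 2 of the 16 mitochondrial genes rose and 8 fell. The median difference was 0.65 for the cytosolic genes and -0.45 for the mitochondrial genes, beside 0.07 for all genes. Genes above background level on at least 1 array had a median of 0.0007. Rises by 1 log2 unit or more were seen in 6 cytosolic genes and 1 mitochondrial gene, against 4.98% of all genes. Falls of that size were seen in 2 cytosolic and 4 mitochondrial genes, against 6.34% of all genes. Among the 11487 genes above background level, where nearly all members lie, 1113 rose and 1423 fell by that much. The arrays of the groups did not overlap for 32 of the 36 genes, against 69.9% of all genes and 85.8% of those above background. Over the whole family, 14 of the 36 genes rose and 13 fell, a called share of 75.0%. It was 85% for the cytosolic and 62.5% for the mitochondrial genes, beside 63.7% of genes above background and 36.0% of all genes. The mitochondrial share was thus close to that of genes above background. Among those 30.7% rose and 33.0% fell, against 60% and 25% of the cytosolic and 12.5% and 50% of the mitochondrial genes. The members were chosen with earlier results of these data known, so these counts are a description, and the lists were not tested against each other. The mitochondrial median fell in a gap between WARS2 (-0.74) and LARS2 (-0.17). It was therefore -0.17 with TARS3 counted as mitochondrial or without the 3 members under background on any array, and -0.74 with genes at background on all arrays left out.

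**Figure D1:**
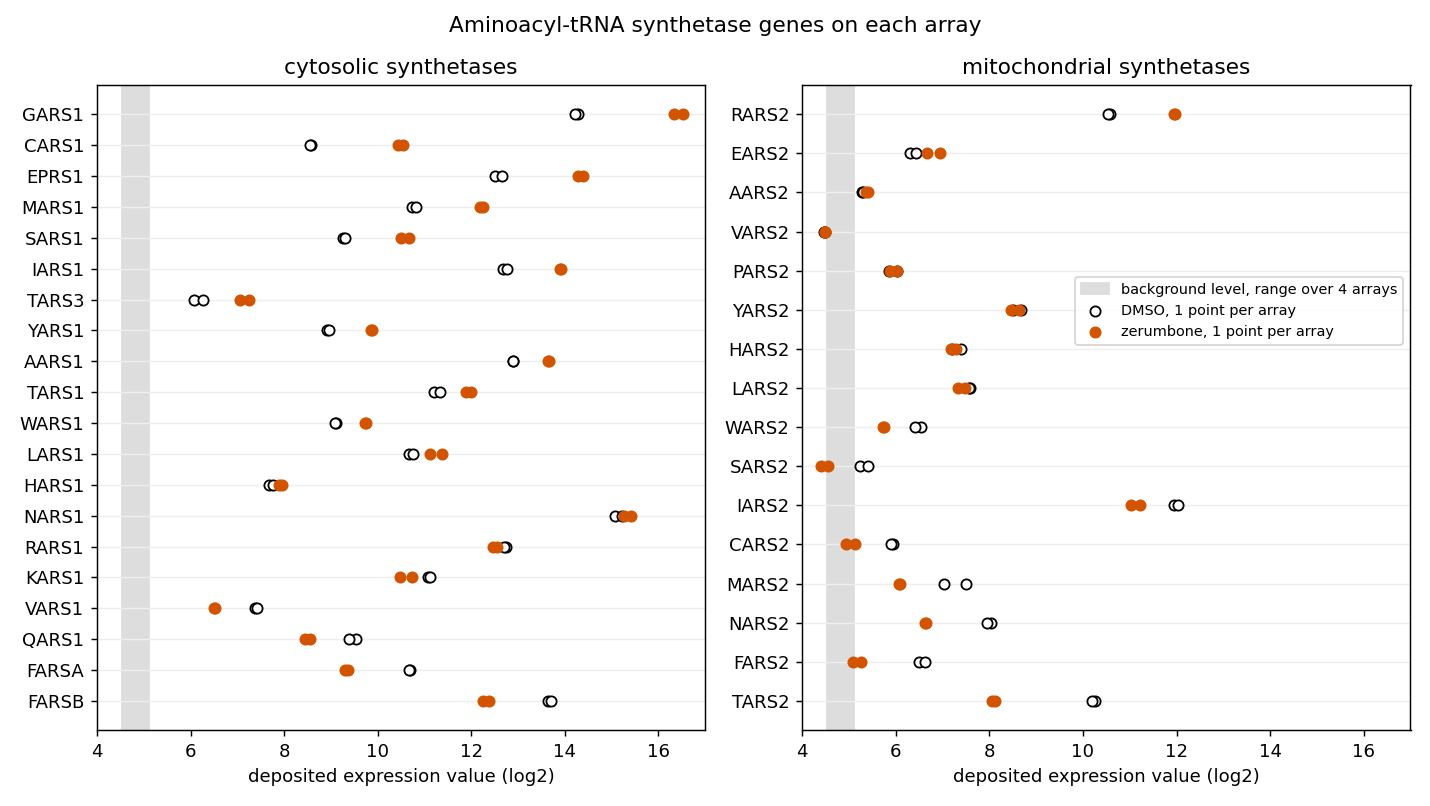
Deposited log2 expression value (x axis) of each synthetase gene (y axis) on each of the 4 arrays, with cytosolic genes on the left and mitochondrial genes on the right, ordered by their change. Open points are DMSO arrays and filled points zerumbone arrays, and the grey band spans the background level of the 4 arrays, from 4.54 to 5.10; the points of a group lie close together, and VARS2 lies inside or under the band in both groups.

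GARS1, which charges glycine tRNA for both compartments, had the largest rise of the family. It read 14.27 and 14.22 on the DMSO arrays and 16.33 and 16.52 on the zerumbone arrays, a 4.52-fold rise (log2 difference 2.18, SE 0.087, adjusted p 9.14e-05). CARS1, the cysteinyl enzyme, read 8.58 and 8.54 under DMSO and 10.43 and 10.54 under zerumbone, a 3.80-fold rise (1.93, SE 0.070, adjusted p 7.98e-05). For both genes each zerumbone array lay above each DMSO array by far more than arrays of a group differed. Among all genes GARS1 and CARS1 ranked 158 and 230 by size of rise.

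EPRS1 encodes a single polypeptide that charges both glutamate and proline tRNA. It read 12.50 and 12.66 under DMSO and 14.28 and 14.39 under zerumbone, a 3.37-fold rise (1.75, SE 0.085, adjusted p 1.47e-04). MARS1, the methionyl enzyme that supplies initiator tRNA, read 10.74 and 10.81 under DMSO and 12.18 and 12.24 under zerumbone, 2.71-fold higher (1.44, adjusted p 1.30e-04). The groups of both genes were well apart. SARS1, the seryl enzyme that also starts the making of selenocysteine tRNA, read 9.26 and 9.31 under DMSO and 10.68 and 10.50 under zerumbone, 2.47-fold higher (1.30, adjusted p 3.34e-04). IARS1, the isoleucyl enzyme, read 12.69 and 12.76 under DMSO and 13.89 and 13.92 under zerumbone, 2.28-fold higher (1.19, adjusted p 1.97e-04). In these 4 genes the lower zerumbone array exceeded the higher DMSO array by over 1 log2 unit.

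The other 6 cytosolic rises were under 2-fold. TARS3, a threonyl enzyme close in sequence to TARS1, rose by 0.98, with 6.08 and 6.26 under DMSO and 7.06 and 7.24 under zerumbone. YARS1, the tyrosyl enzyme, rose by 0.93 and AARS1, the alanyl enzyme, by 0.76. TARS1, the main cytosolic threonyl enzyme, rose by 0.67, and WARS1, the tryptophanyl enzyme known as an interferon-gamma induced gene, by 0.63. LARS1, the leucyl enzyme that also acts as a leucine sensor for mTORC1, read 10.66 and 10.76 under DMSO and 11.11 and 11.37 under zerumbone, a rise of 0.53 (SE 0.107, adjusted p 0.0163). Its zerumbone arrays had an SD of 0.186, and the call was lost without DMSO replicate 1 (adjusted p 0.108) or DMSO replicate 2 (0.0726).

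Phenylalanyl-tRNA synthetase of the cytosol is built from 2 subunits, and the genes of both fell by nearly the same amount. FARSA, the alpha subunit, read 10.69 and 10.68 under DMSO and 9.30 and 9.36 under zerumbone, 2.55-fold lower (-1.35, SE 0.062, adjusted p 1.25e-04). FARSB, the beta subunit, read 13.64 and 13.71 under DMSO and 12.25 and 12.38 under zerumbone, 2.57-fold lower (-1.36, SE 0.076, adjusted p 2.16e-04). Both subunits therefore went against the prevailing direction of the cytosolic genes, with no overlap between groups. QARS1, the glutaminyl enzyme, read 9.55 and 9.38 under DMSO and 8.45 and 8.55 under zerumbone (-0.96, SE 0.085, adjusted p 8.91e-04).

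VARS1, the valyl enzyme, read 7.38 and 7.41 under DMSO and 6.52 and 6.51 under zerumbone, lower (-0.88, SE 0.060, adjusted p 3.80e-04). The gene has 7 rows, most of them for alternative assemblies of its region, and all 7 were lower, by -0.64 to -0.88. KARS1, the lysyl enzyme of both compartments, read 11.08 and 11.11 under DMSO and 10.73 and 10.48 under zerumbone. Its difference of -0.49 (adjusted p 0.0172) lost its call without DMSO replicate 1 (0.0927) or DMSO replicate 2 (0.106). The genes for the enzymes shared by both compartments, GARS1 and KARS1, thus moved in opposite directions.

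The remaining 3 cytosolic genes did not pass. RARS1, the arginyl enzyme, differed by -0.21 (95% interval -0.38 to -0.04, adjusted p 0.0625), HARS1, the histidyl enzyme, by 0.20 (0.03 to 0.38, adjusted p 0.0760) and NARS1, the asparaginyl enzyme, by 0.18 (-0.06 to 0.41, adjusted p 0.200). RARS1 passed as lower after cyclic loess (-0.30, adjusted p 0.0191), with dim genes left out (0.0383) and with an intensity trend (0.0486), and HARS1 passed as higher with dim genes left out (0.0471).

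**Figure D2:**
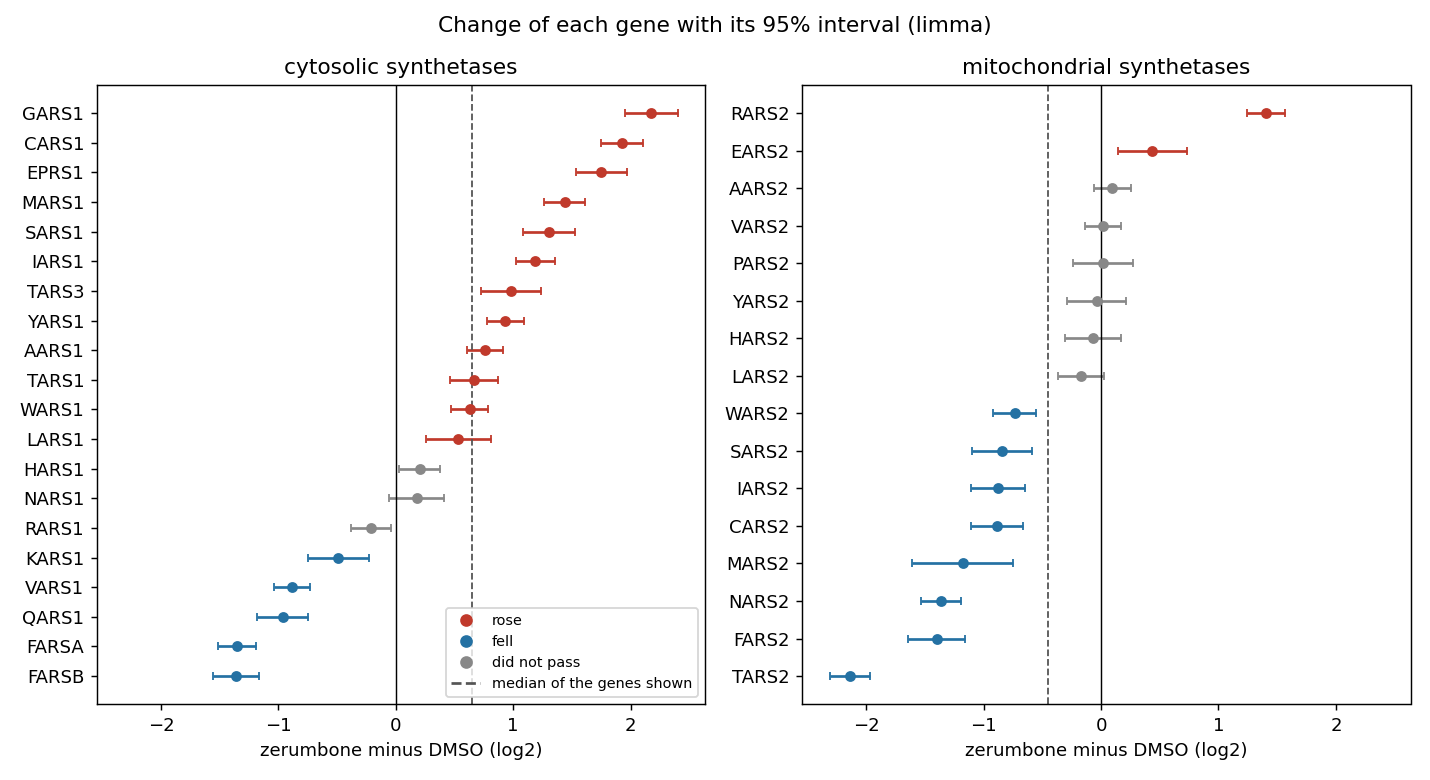
Zerumbone minus DMSO difference on the log2 scale (x axis) of each synthetase gene (y axis), with bars for the 95% interval of limma, red for genes that rose, blue for genes that fell and grey for genes that did not pass. Dashed lines mark the medians, 0.65 for the cytosolic and -0.45 for the mitochondrial genes; the cytosolic genes run from FARSB at -1.36 to GARS1 at 2.18 and the mitochondrial genes from TARS2 at -2.14 to RARS2 at 1.41.

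Because many cytosolic members rose together, the sequence at their start sites was examined for the C/EBP-ATF response element, a composite site that ATF4 is known to bind with C/EBP factors. A RefSeq window of 250 bases before to 50 after the start site (build GRCh38.p14) was at hand for 30 of the 36 genes, some with more than 1 window. The letters TGATGNAA, on either strand, were found in 7 of 16 cytosolic and 1 of 14 mitochondrial genes, against 4.46% of 27305 genes with a window. The 7 were GARS1, CARS1, MARS1, IARS1, TARS1, AARS1 and NARS1, and the mitochondrial gene was YARS2. Of the 9 cytosolic genes that rose and had a window 6 held a match and EPRS1, SARS1 and WARS1 did not. Of the 4 that fell and had a window 0 did, and of the 3 that did not pass 1, NARS1, did. The element was chosen with these results known, so this split gives no independent support. No window was at hand for LARS1, YARS1 and TARS3, which rose, or for VARS1, which fell. A match is a description of letters, not a bound site, and nothing follows from its absence in this window.

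The stretches are shown 5′ to 3′ on the strand of the gene, with the match in capitals, because these 5 genes rose and hold the match close to the start site. They run from base -75 to base 25 of the start site. GARS1 lies at chr7:30594803-30594902, plus strand, CARS1 at chr11:3057399-3057498, minus strand, MARS1 at chr12:57487993-57488092, plus strand, IARS1 at chr9:92293673-92293772, minus strand and TARS1 at chr5:33440890-33440989, plus strand.
GARS1: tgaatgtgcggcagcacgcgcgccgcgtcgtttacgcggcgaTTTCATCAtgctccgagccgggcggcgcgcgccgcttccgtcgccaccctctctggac
CARS1: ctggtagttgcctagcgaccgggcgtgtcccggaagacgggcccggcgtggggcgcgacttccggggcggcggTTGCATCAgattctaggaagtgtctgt
MARS1: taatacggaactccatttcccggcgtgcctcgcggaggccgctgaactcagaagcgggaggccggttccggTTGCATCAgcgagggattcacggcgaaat
IARS1: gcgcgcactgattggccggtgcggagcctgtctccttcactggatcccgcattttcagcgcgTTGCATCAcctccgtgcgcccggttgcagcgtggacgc
TARS1: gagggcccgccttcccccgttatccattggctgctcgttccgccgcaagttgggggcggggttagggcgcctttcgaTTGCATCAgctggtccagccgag

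The match in CARS1, MARS1, IARS1 and TARS1 was the same 8 letters, TTGCATCA, beginning at bases -2, -4, -13 and 3 of the start site. In GARS1 it was TTTCATCA, beginning at base -33. AARS1 held TTGCATCA farther upstream, at base -187, in a stretch from base -225 to base -126 (chr16:70289632-70289731, minus strand). NARS1, which did not pass the test, held the same element on the other strand at base 15 (chr18:57621812-57621911, minus strand). The windows of FARSB (chr2:222656068-222656167, minus strand) and QARS1 (chr3:49104733-49104832, minus strand), which fell, are given for comparison and hold no match.
AARS1: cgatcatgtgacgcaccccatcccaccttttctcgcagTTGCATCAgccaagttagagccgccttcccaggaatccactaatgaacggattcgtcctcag
NARS1: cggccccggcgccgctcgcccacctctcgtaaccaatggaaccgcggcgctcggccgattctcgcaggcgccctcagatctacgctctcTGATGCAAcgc
FARSB: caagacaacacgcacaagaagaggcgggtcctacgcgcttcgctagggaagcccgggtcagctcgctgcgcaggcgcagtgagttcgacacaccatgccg
QARS1: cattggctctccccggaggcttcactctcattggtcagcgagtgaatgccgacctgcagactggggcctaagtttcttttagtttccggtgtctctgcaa

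Other motifs were sought in the same windows. The cyclic AMP response element TGACGTCA was found in 0 of 16 cytosolic and 0 of 14 mitochondrial genes (2.25% of all genes), and the NRF1 element core GCGCATGC in 0 and 2 (3.68%), namely MARS2 and YARS2. The E-box CACGTG was found in 1 and 3 (8.77%), the heat shock element GAANNTTC in 2 and 1 (8.21%) and the antioxidant response element core TGACNNNGC in 4 and 2 (16.1%), all on both strands.

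The cytosolic genes were also read by the 13 that are well known as ATF4-responsive. Of these 11 rose and 1, VARS1, fell, with a median of 0.93. Of the other 7 cytosolic genes 1, TARS3, rose and 4 fell, with a median of -0.49. That list was drawn up with these results known and gives no independent support. ATF4 itself read 10.83 and 10.84 under DMSO and 12.88 and 12.82 under zerumbone, 4.04-fold higher (adjusted p 6.03e-05). The other 3 genes of the uncharged tRNA branch fell, EIF2AK4, which encodes GCN2, by 0.52, its activator GCN1 by 0.42 and IMPACT, an inhibitor of that activation, by 1.16. With DMSO replicate 1 left out, GCN1 no longer passed (adjusted p 0.0551).

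In the cytosol 7 of the enzymes described here sit in the multi-synthetase complex. EPRS1, MARS1, IARS1 and LARS1 rose, QARS1 and KARS1 fell and RARS1 did not pass, so partners of the same complex differed in direction. With either DMSO array left out, the calls of both KARS1 and LARS1 were lost. The differences were then -0.505 and -0.475 for KARS1 and 0.485 and 0.577 for LARS1, without DMSO replicate 1 and 2 in turn. Both calls are included in the counts by complex and by class here. The only scaffold protein of the complex with a row of its own, AIMP1, read 10.94 and 11.03 under DMSO and 10.23 and 10.28 under zerumbone, a difference of -0.73 (adjusted p 0.00109). Among the 13 cytosolic enzymes outside the complex 8 rose and 3 fell. By structural class, 6 of 9 cytosolic class I enzymes rose and 2 fell, and 5 of 10 class II enzymes rose and 3 fell, with EPRS1 holding a domain of each class.

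Among the mitochondrial members falls outnumbered rises, with 8 of 16 lower, 2 higher and 6 that did not pass. TARS2, the mitochondrial threonyl enzyme, had the largest fall of the family, with 10.25 and 10.19 under DMSO and 8.11 and 8.05 under zerumbone, 4.41-fold lower (-2.14, SE 0.066, adjusted p 6.03e-05). It ranked 308 among all genes by size of fall. NARS2, the asparaginyl enzyme, read 8.04 and 7.95 under DMSO and 6.64 and 6.63 under zerumbone, 2.57-fold lower (-1.36, SE 0.065, adjusted p 1.40e-04). FARS2, the phenylalanyl enzyme, which acts as a single chain, read 6.49 and 6.63 under DMSO and 5.25 and 5.08 under zerumbone, 2.64-fold lower (-1.40, adjusted p 3.53e-04). All 3 genes had groups well apart, though FARS2 was only just over background level under zerumbone (5.08 on replicate 2, where that level was 5.03), which limits how exactly its fold is known.

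MARS2, the mitochondrial methionyl enzyme, read 7.02 and 7.50 under DMSO and 6.07 and 6.10 under zerumbone, a difference of -1.18 (SE 0.165, adjusted p 0.00448). Its DMSO arrays had an SD of 0.341, the widest spread within a group among the 36 genes. IARS2, the isoleucyl enzyme, read 11.95 and 12.04 under DMSO and 11.03 and 11.21 under zerumbone, a difference of -0.88. WARS2, the tryptophanyl enzyme, fell by 0.74, from 6.54 and 6.42 to 5.73 and 5.75. The call of each of these 3 genes held whichever array was left out (highest adjusted p 0.0330, for MARS2).

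CARS2, the cysteinyl enzyme, read 5.93 and 5.90 under DMSO and 5.13 and 4.94 under zerumbone, with 1 of the zerumbone arrays under background level, and its fall passed (adjusted p 0.00116). SARS2, the seryl enzyme, read 5.23 and 5.41 under DMSO and was at background level on both zerumbone arrays, at 4.40 and 4.56, a fall of at least 1.35-fold. A brighter row that SARS2 shares with FBXO17 read 7.58 and 7.69 under DMSO and 7.60 and 7.50 under zerumbone, so the fall was not seen there. Without the members under background level on any array, a count added after seeing the data, 6 mitochondrial genes fell in place of 8.

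RARS2, the mitochondrial arginyl enzyme, was the exception among mitochondrial genes. It read 10.58 and 10.53 under DMSO and 11.94 and 11.98 under zerumbone, 2.65-fold higher (1.41, SE 0.062, adjusted p 1.14e-04). EARS2, the glutamyl enzyme, which in mitochondria also charges glutamine tRNA for later amidation, read 6.30 and 6.44 under DMSO and 6.68 and 6.94 under zerumbone. Its rise of 0.44 (adjusted p 0.0363) no longer passed with DMSO replicate 1 (0.186), DMSO replicate 2 (0.0968) or zerumbone replicate 2 (0.0897) left out. RARS2 was thus the only mitochondrial rise that held whichever array was left out.

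The other 6 mitochondrial genes did not pass. The 95% intervals of their differences were -0.37 to 0.03 for LARS2, -0.31 to 0.17 for HARS2, -0.29 to 0.22 for YARS2, -0.24 to 0.27 for PARS2, -0.14 to 0.17 for VARS2 and -0.06 to 0.25 for AARS2. VARS2 was at background level in both groups, so its interval says little about its transcript. By class, 0 of 7 mitochondrial class II genes rose and 4 fell, and 2 of 9 class I genes rose and 4 fell, with RARS2 the only class I rise where the call of EARS2 was lost.

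**Figure D3:**
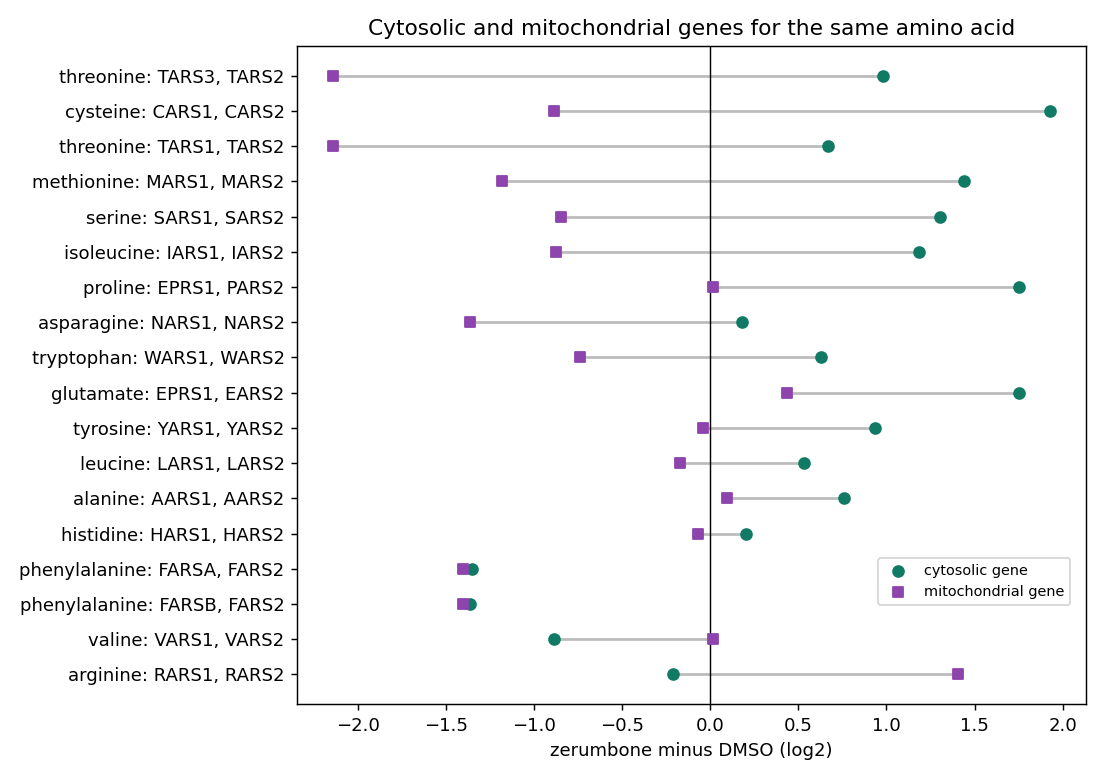
Zerumbone minus DMSO difference on the log2 scale (x axis) of the cytosolic gene (circle) and the mitochondrial gene (square) for each amino acid (y axis), joined by a line and ordered by the gap. The widest gaps are those of TARS3 or TARS1 with TARS2 and of CARS1 with CARS2, phenylalanine shows no gap, and valine and arginine are reversed; SARS2 is drawn at its measured change although it was at background level under zerumbone, so the gap of serine is at least 1.74.

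Set amino acid by amino acid, 18 pairs of a cytosolic and a mitochondrial gene covered 16 amino acids, with EPRS1, FARS2 and TARS2 in 2 pairs each. In 7 pairs, 2 of them for threonine with the same TARS2, the cytosolic gene rose and the mitochondrial gene fell. In 4 the cytosolic gene rose while the mitochondrial gene did not pass. One of these is leucine, where the call of LARS1 was lost with either DMSO array left out. The gap between the changes was taken from the ratio of both genes on each array, with 2 arrays a group. An exact permutation test over these arrays cannot give a p under 0.333, so the gaps are given with their standard errors and no test. Each SE of a gap comes from the spread of 2 ratios a group, without limma, and is itself poorly known. It is not comparable with the SE of a single gene. Threonine had gaps of 3.12 ± 0.169 (SE) for TARS3 against TARS2 and 2.81 ± 0.129 (SE) for TARS1 against TARS2. Cysteine (CARS1 against CARS2) had a gap of 2.81 ± 0.148 (SE). CARS2 was under background level on 1 zerumbone array. Methionine followed with 2.62 ± 0.204 (SE) and isoleucine with 2.06 ± 0.078 (SE). For serine the gap was at least 1.74, since SARS2 was at background level on both zerumbone arrays and its fall has only a lower bound, so its place among them is not known. The brighter row that SARS2 shares with FBXO17 showed no such fall. For proline (EPRS1 against PARS2) the gap was 1.74 ± 0.028 (SE), for asparagine 1.54 ± 0.143 (SE) and for tryptophan 1.37 ± 0.056 (SE).

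Phenylalanine stood apart in that all of its genes fell. The change of FARSA differed from that of FARS2 by 0.05 ± 0.137 (SE) and that of FARSB by 0.04 ± 0.154 (SE), less than the spread between arrays, with FARS2 close to background level under zerumbone. Arginine was reversed, with a gap of -1.62 ± 0.017 (SE), since RARS2 rose and RARS1 did not pass. That SE rests on 2 ratios a group and is smaller than those of RARS1 (0.066) and RARS2 (0.062) from limma. Valine was reversed as well (-0.90), but with VARS2 at background level. For glutamate both EPRS1 and EARS2 rose, with a gap of 1.31 ± 0.078 (SE).

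HARS1 and HARS2 are a special pair, since RefSeq places their start sites 85 bases apart on opposite strands of chromosome 5, and their windows share 184 bases. HARS1 read 7.67 and 7.76 under DMSO and 7.90 and 7.95 under zerumbone, and HARS2 read 7.21 and 7.40 under DMSO and 7.18 and 7.29 under zerumbone. Neither passed, and their gap of 0.28 ± 0.060 (SE) was among the smallest. The paralogs HARS1 and HARS2, and TARS1 and TARS3, are close in sequence, and probes shared between them were not examined here.

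Among partners of the pathway, XPOT, the exportin that carries mature tRNA to the cytosol, read 14.26 and 14.36 under DMSO and 15.75 and 15.82 under zerumbone, 2.79-fold higher (adjusted p 1.41e-04). Of 4 measured genes for export and delivery to the ribosome XPOT was the only rise and EEF1A2, an elongation factor that carries charged tRNA, the only fall (-0.56). EEF1B2 and EEF1G, of the same group, have only rows shared with another gene and were not tested. Those rows read 11.07 and 11.04 (EEF1B2) and 15.06 and 15.04 (EEF1G) under DMSO. Under zerumbone they were higher, at 11.52 and 11.48 (EEF1B2) and 15.55 and 15.43 (EEF1G). Of 5 selenocysteine genes SEPHS2, which makes selenophosphate, rose by 1.82, while EEFSEC, the selenocysteine elongation factor, fell by 1.06 and SECISBP2 by 0.41. SECISBP2 no longer passed with DMSO replicate 1 (adjusted p 0.0568), DMSO replicate 2 (0.149) or zerumbone replicate 1 (0.101) left out. Of 3 measured genes for editing of mischarged tRNA 0 passed by limma, with 0 at an unadjusted p under 0.05.

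Of 7 measured mitochondrial partners of charging and delivery 0 rose and 1 fell, and 4 had an unadjusted p under 0.05. MTFMT, which formylates the initiator methionyl-tRNA, was the one called, with 10.25 and 10.11 under DMSO and 9.11 and 9.12 under zerumbone, a difference of -1.06. The genes that convert glutamyl-tRNA to glutaminyl-tRNA, QRSL1, GATB and GATC, differed by 0.31, 0.01 and -0.09 and did not pass (adjusted p 0.0585 for QRSL1). A dimmer row that GATC shares with SRSF9 was lower, with 10.26 and 10.22 under DMSO and 9.77 and 9.62 under zerumbone. TUFM, another partner, has only a row shared with MIR4721 and was not tested. That row read 11.86 and 11.79 under DMSO and 11.26 and 11.35 under zerumbone. TSFM, a mitochondrial elongation factor, differed by -0.29 (adjusted p 0.0642) and passed without zerumbone replicate 2 (0.0289), which gave 2 falls. Of 26 measured genes of tRNA processing and modification 13 fell (50%) and 2 rose (7.7%), with a median of -0.34. Among genes above background 33.0% fell and 30.7% rose, and among all genes 17.7% and 18.4%. With DMSO replicate 2 left out fewer of the 26 passed as lower, as did fewer of all genes. PUS7, a pseudouridine synthase, fell by 1.51, ADAT2, a subunit of the inosine-forming deaminase, by 1.06, and WDR4 and METTL1, which together add 7-methylguanosine, by 0.83 and 0.80. The rises were MTO1 (0.44), of mitochondrial tRNA modification, and TSEN34 (0.24), of tRNA splicing. MTO1 no longer passed with DMSO replicate 1 (adjusted p 0.0866) or zerumbone replicate 2 (0.0508) left out, and TSEN34 whichever array was left out (0.0703 to 0.169).

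**Figure D4:**
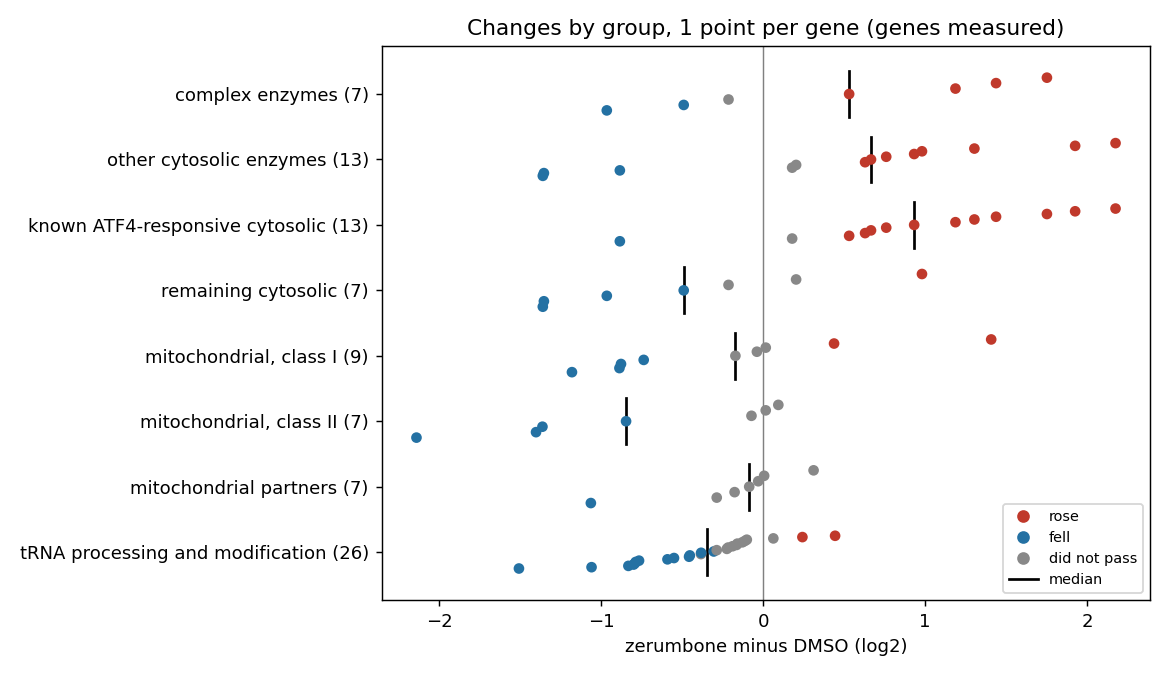
Zerumbone minus DMSO difference on the log2 scale (x axis) by gene group (y axis), 1 point per measured gene, red for genes that rose, blue for genes that fell and grey for genes that did not pass, with a bar at each median. The known ATF4-responsive cytosolic enzymes lie mostly right of 0 (median 0.93) and the remaining cytosolic enzymes mostly left of it (median -0.49). The ATF4-responsive list was drawn up with these results known, so this split gives no independent support. Cytosolic genes appear in both divisions of their compartment, and EPRS1 is in each.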

How the data were processed

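Total RNA of 4 samples was hybridised to 1 array each, 2 after DMSO and 2 after zerumbone. The authors deposited 1 table of log2 values, produced by RMA (Affymetrix Expression Console) per the submitters' processing notes, with no version or genome build given in the sources used here. RMA subtracts background, equalises array distributions and summarises probes, which can compress changes of dim genes. The deposited log2 values reach 19.93, above a 16-bit scanner's range, so a further step is possible.

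Of 70523 rows, 67528 were transcript clusters; 23781 carried 1 gene symbol, 1543 several and 42204 none in the platform annotation, which left 22465 genes (row with the highest mean for the 479 genes with more than 1). Groups were taken from the source labels. The replicate numbers used here are not in the labels and follow the order in which the samples are listed. lmFit and eBayes of limma 3.58.1 (R 4.3.3) were run on all genes, two-sided, with Benjamini-Hochberg adjustment over all of them. The fit had 2 residual and 2.88 prior degrees of freedom. The number of arrays limits the precision. On simulated data from these 22465 genes, with 50 changed at each size, 4% of changes of 0.5, 68% of 1 and 90% of 2 (log2) were recovered, with 0 false calls; the threshold is stricter there than on the arrays, since fewer genes changed.

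The rule for named genes takes all members, whatever their result, and up to 4 called genes of each partner list with the largest change; the other partner and marker genes given were named after their values were seen. Members, lists and motifs were chosen with earlier results of these data known. Alternatives were median centring, cyclic loess, leaving out dim genes, averaging the rows of a gene, an intensity trend, leaving out each array, and other assignments of TARS3, GARS1 and KARS1. Leaving out members under background was added after the data were seen. Partner genes without a row of their own were not tested. Plots were drawn with matplotlib 3.10.9 (Python 3.11.15).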

Additional observations from a re-analysis of the deposited data

How the results depend on the processing

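No paired analysis was possible because the arrays carry no replicate numbers in the labels. Of 27 called members, 24 kept their direction and call under every alternative that could be run; KARS1, LARS1 and EARS2 lost theirs only when an array was left out. The number of mitochondrial genes that rose was 1 to 2 when each array was left out in turn, and the other counts over all, cytosolic and mitochondrial members stayed within 1.5 times of the values given. The number of all genes that rose was 2557 to 3822 when each array was left out, with 2557 without DMSO replicate 1 and 2687 without DMSO replicate 2. The cytosolic median was 0.58 after cyclic loess, which lowered the median of all genes to 0.00, and 0.62 to 0.69 without an array. The mitochondrial median was -0.74 with dim genes left out, -0.17 with TARS3 counted as mitochondrial, -0.17 without members under background, and -0.50 to -0.41 without an array. Genes that did not pass changed sign in some settings. HARS2 ranged from -0.17 to 0.024, PARS2 from -0.078 to 0.11 and YARS2 from -0.13 to 0.052 without an array, and VARS2 was -0.014 after cyclic loess; the cause was not tested. Signal near background limits VARS2, SARS2, CARS2, FARS2 and AARS2.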
